A study of Arabidopsis thaliana with 12 samples.

Results

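The cysteine-rich receptor-like kinases (CRKs) were followed as a gene family through RNA-seq of whole 14-day-old Arabidopsis thaliana seedlings. The members were 41 genes taken by identifier, CRK1 to CRK34 and CRK36 to CRK42, out of 33553 gene identifiers in the tables. The family was selected on the FPKM values and calls of these same mutant and WT comparisons, so every count below is a description and supports nothing by itself. The groups were pkl, clf and lhp1 seedlings and wild type (WT), with 3 libraries per genotype by their titles and 12 in all. The labels name no allele, ecotype or transgene, and they do not say whether libraries came from separate cultures. PKL encodes a chromatin remodeller of the CHD3 type. CLF encodes the enzyme of a Polycomb complex that methylates histone H3 at lysine 27, and LHP1 encodes a reader of that mark.

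CRKs carry an extracellular region with paired DUF26 domains, named for conserved cysteines, then a membrane-spanning segment and a cytoplasmic kinase domain. Many are induced by pathogens, salicylic acid or reactive oxygen in leaves, and they act in immune signalling, cell death and the response to oxidative stress. WRKY transcription factors, which bind the W-box, are known regulators of several CRK genes in this species.

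The family is concentrated on chromosome 4, which held 36 of the 41 members. The tandem array AT4G23130 to AT4G23320 (CRK5 to CRK24) held 20 of them between 12117541 and 12191977 on TAIR10, a stretch of 74.4 kb, with 11 genes on the minus and 9 on the plus strand in the RefSeq annotation. Of the 41 members 30 had a locus of their own in the authors' tables, 13 in the array and 17 outside it. The other 11 lay in 6 loci that merge several genes, and a value there cannot be given to 1 gene. Paralogs were similar but not near-identical: coding sequences shared at most 89.6% of the bases of the shorter one (CRK19 and CRK20), and 13 of 820 pairs reached 80%. CRK9 shared 89.3% with its neighbour CRK8. Reads may be split between such copies, so values of these genes are uncertain to that extent.

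The upstream sequences of 6 members are shown because these genes carry the main patterns described below. CRK4, CRK5, CRK14 and CRK41 were called lower in all 3 mutants, CRK12 had the largest fall in clf and in lhp1, and CRK30 was the member called higher in pkl. Each is 250 bases read 5′ to 3′ along the gene's strand from the RefSeq genome TAIR10.1. For CRK4, CRK5 and CRK12 the window ends at the RefSeq gene start, and for CRK14, CRK41 and CRK30 it ends at the start of the authors' locus, which lies farther upstream than the RefSeq start. In each sequence capitals mark the W-box core TTGAC or its reverse complement GTCAA.
CRK4, chr3:16866262-16866511, minus strand: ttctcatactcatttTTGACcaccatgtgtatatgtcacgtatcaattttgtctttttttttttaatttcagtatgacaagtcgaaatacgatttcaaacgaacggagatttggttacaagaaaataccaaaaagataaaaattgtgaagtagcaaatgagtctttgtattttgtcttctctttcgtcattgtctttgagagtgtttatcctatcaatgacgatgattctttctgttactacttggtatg
CRK5, chr4:12120221-12120470, minus strand: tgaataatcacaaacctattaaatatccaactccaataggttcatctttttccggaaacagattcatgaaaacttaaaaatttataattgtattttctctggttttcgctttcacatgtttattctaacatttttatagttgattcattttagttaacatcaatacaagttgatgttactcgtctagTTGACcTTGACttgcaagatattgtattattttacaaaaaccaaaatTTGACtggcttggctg
CRK14, chr4:12157092-12157341, minus strand: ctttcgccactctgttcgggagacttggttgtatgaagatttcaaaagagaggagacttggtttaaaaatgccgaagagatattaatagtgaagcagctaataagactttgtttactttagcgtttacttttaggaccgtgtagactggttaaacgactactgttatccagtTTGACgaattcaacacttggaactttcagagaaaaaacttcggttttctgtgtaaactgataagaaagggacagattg
CRK41, chr4:417951-418200, plus strand: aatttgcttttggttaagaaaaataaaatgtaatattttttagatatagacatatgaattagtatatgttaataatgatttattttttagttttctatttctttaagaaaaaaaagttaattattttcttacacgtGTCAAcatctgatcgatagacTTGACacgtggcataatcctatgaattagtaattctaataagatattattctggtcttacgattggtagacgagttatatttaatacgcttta
CRK12, chr4:12148042-12148291, minus strand: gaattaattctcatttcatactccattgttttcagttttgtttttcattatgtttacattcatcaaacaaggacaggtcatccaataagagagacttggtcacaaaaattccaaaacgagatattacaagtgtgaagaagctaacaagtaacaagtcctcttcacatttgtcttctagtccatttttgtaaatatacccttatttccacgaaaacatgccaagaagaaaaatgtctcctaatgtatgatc
CRK30, chr4:6962592-6962841, plus strand: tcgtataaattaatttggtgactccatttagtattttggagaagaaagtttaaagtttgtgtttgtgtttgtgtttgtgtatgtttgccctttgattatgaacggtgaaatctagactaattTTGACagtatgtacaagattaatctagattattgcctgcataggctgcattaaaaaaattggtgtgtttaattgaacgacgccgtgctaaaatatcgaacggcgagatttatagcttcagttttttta

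The W-box core stood in the upstream window of CRK4, CRK5, CRK14, CRK41 and CRK30, and not in that of CRK12. Searched on both strands, where the core cannot overlap itself, it was in 30 of 41 CRK windows (73.2%), against 12414 of 27443 windows of all protein-coding genes (45.2%). It was in 14 of 20 windows in the array and 16 of 21 outside it. CRK11, a gene of the array, had the most, with 6 cores. The telo box AAACCCTA and the GAGA repeat GAGAGA were searched in the same way. The telo box was in 0 of 41 CRK windows, against 4.32% of all windows. The GAGA repeat was in 11 of 41 (26.8%), against 19.7% of all windows. The windows of CRK15, CRK24, CRK25, CRK26, CRK28, CRK29, CRK34 and CRK40 hold an exon of another gene and were counted all the same. For that reason the sequence of CRK25, called higher in lhp1, is not shown. A match of these letters is not a bound site, and its absence from 250 bases says nothing about a factor.

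In the tables each genotype has 1 FPKM value per locus (a fragment count scaled to transcript length and to library size), so values carry no standard deviation and library depth is unknown. A gene was called, and is said to have risen or fallen, where the authors' deposited Cuffdiff q-value was under 0.05. The lowest such q was 0.000661 in each of the mutants, so genes at that value are not ranked by it. Log2 fold changes are of FPKM + 1, mutant over WT, which understates changes of weakly expressed genes. As a check of the labels, PKL stood at 6.83 FPKM in pkl against 20.8 in WT, CLF at 0.264 in clf against 8.37 in WT (q of the authors' deposited table = 0.0520), and LHP1 was listed at 0 in lhp1 against 12.1 in WT. The median ratio of mutant to WT over loci of at least 1 FPKM was 1.01 in pkl, 0.994 in clf and 1.02 in lhp1.

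In WT, 18 of the 30 CRK genes with their own locus reached 1 FPKM and 6 reached 10 FPKM. The highest levels in WT were those of CRK9 (40.5 FPKM), CRK10 (29.6), CRK3 (28.2), CRK40 (27.4) and CRK2 (26.2). Summed over the 13 array genes, the level was 67.3 FPKM in pkl, 88.5 in clf, 59.1 in lhp1 and 110.9 in WT. Summed over the 17 genes outside, it was 99.1 FPKM in pkl, 109.7 in clf, 105.5 in lhp1 and 117.9 in WT. The array total was thus lowest in lhp1 and the outside total lowest in pkl, and both were highest in WT. Since whole seedlings were measured, fewer cells of a kind and less RNA per cell cannot be told apart.

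**Figure D1:**
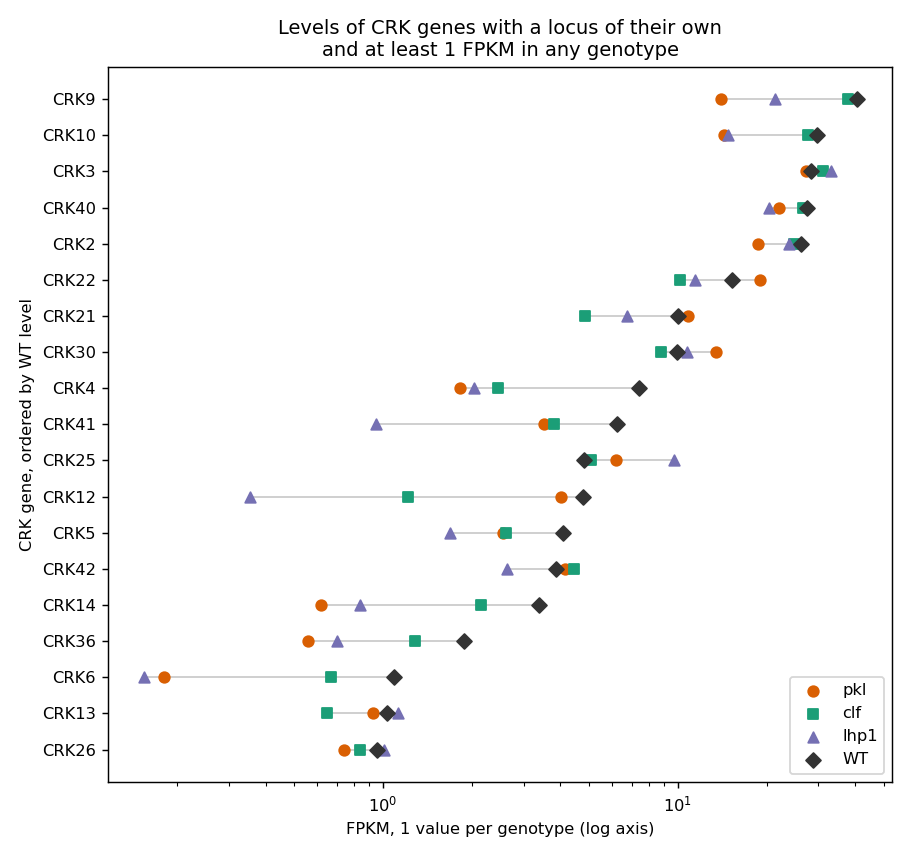
FPKM of each CRK gene with a locus of its own and at least 1 FPKM in any genotype, on a log axis, with 1 point per genotype (pkl, clf, lhp1, WT) and a grey line over their range. WT is the rightmost point for CRK4, CRK5, CRK6, CRK14, CRK36 and CRK41, among others, while CRK25 reached 9.70 FPKM in lhp1 against 4.79 in WT.

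Among CRK genes with a locus of their own, more fell than rose in each mutant. In pkl 9 of 20 tested CRK genes fell and 1 rose, beside 6.75% of all tested loci lower and 6.71% higher. In clf 7 of 20 fell and 0 rose, beside 5.28% lower and 7.15% higher. The 0 rises in clf are by Cuffdiff's q; at an unadjusted p under 0.05 the count was 0 as well, and so it was with p adjusted within the clf table. In lhp1 13 of 20 fell and 1 rose, beside 10.6% lower and 11.1% higher. The comparisons share the WT libraries, so the 3 counts are not independent. The median log2 fold change of the tested members was -0.26 in pkl, -0.25 in clf and -0.47 in lhp1, while that of all tested loci was 0.01, -0.01 and 0.03 in the same order. Over all 30 genes, including the 10 too low to be tested, the CRK medians were -0.08 in pkl, -0.11 in clf and -0.21 in lhp1.

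The array and the rest are counted here over genes with a locus of their own. Beside both stand the shares of all tested loci, 6.75% lower and 6.71% higher in pkl. In clf the shares were 5.28% and 7.15%, and in lhp1 10.6% and 11.1%. Within the array 5 of 10 tested genes fell in pkl, 5 of 10 in clf and 8 of 10 in lhp1. By Cuffdiff's q 0 of these array genes rose in any of the 3. At an unadjusted p under 0.05, 1 was higher in pkl, 0 in clf and 0 in lhp1. With shared loci counted, 1 array locus, that of CRK15 to CRK18, rose in pkl. Outside the array 4 of 10 fell and 1 rose in pkl, 2 fell and 0 rose in clf, and 5 fell and 1 rose in lhp1. The median log2 fold change over the 13 array genes was -0.21 in pkl, -0.30 in clf and -0.51 in lhp1, against -0.06, -0.08 and -0.07 over the 17 outside it in the same order. Of these, 3 array genes and 7 outside genes were too low to be tested. Over the 10 tested genes of each set the medians were -0.37 in pkl, -0.40 in clf and -0.87 in lhp1 in the array, against -0.24, -0.09 and -0.27 outside it in the same order. The difference between array and outside was not tested, since members had been chosen with these values known.

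Of the 20 genes flanking the array, 10 on each side, 7 were expressed enough to be tested. Their calls stand beside shares of all tested loci of 6.75% lower and 6.71% higher in pkl. These shares were 5.28% and 7.15% in clf, and 10.6% and 11.1% in lhp1. In pkl GSH1, for the first enzyme of glutathione synthesis, rose to 314 FPKM in pkl against 239 in WT, and AT4G23340, an oxygenase-family gene, fell to 0.551 against 1.48 in WT. In clf 0 of the 7 were called by Cuffdiff, with 1 lower and 0 higher at an unadjusted p under 0.05. In lhp1 IQD22 (9.92 FPKM against 18.0 in WT) and AT4G23340 (0.592 against 1.48 in WT) fell. The IQD22 locus spans the same interval as that of AT4G23070, so its reads may not be separable from that gene's. The median log2 fold change of the tested flanking genes was -0.01 in pkl, -0.20 in clf and -0.25 in lhp1.

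**Figure D2:**
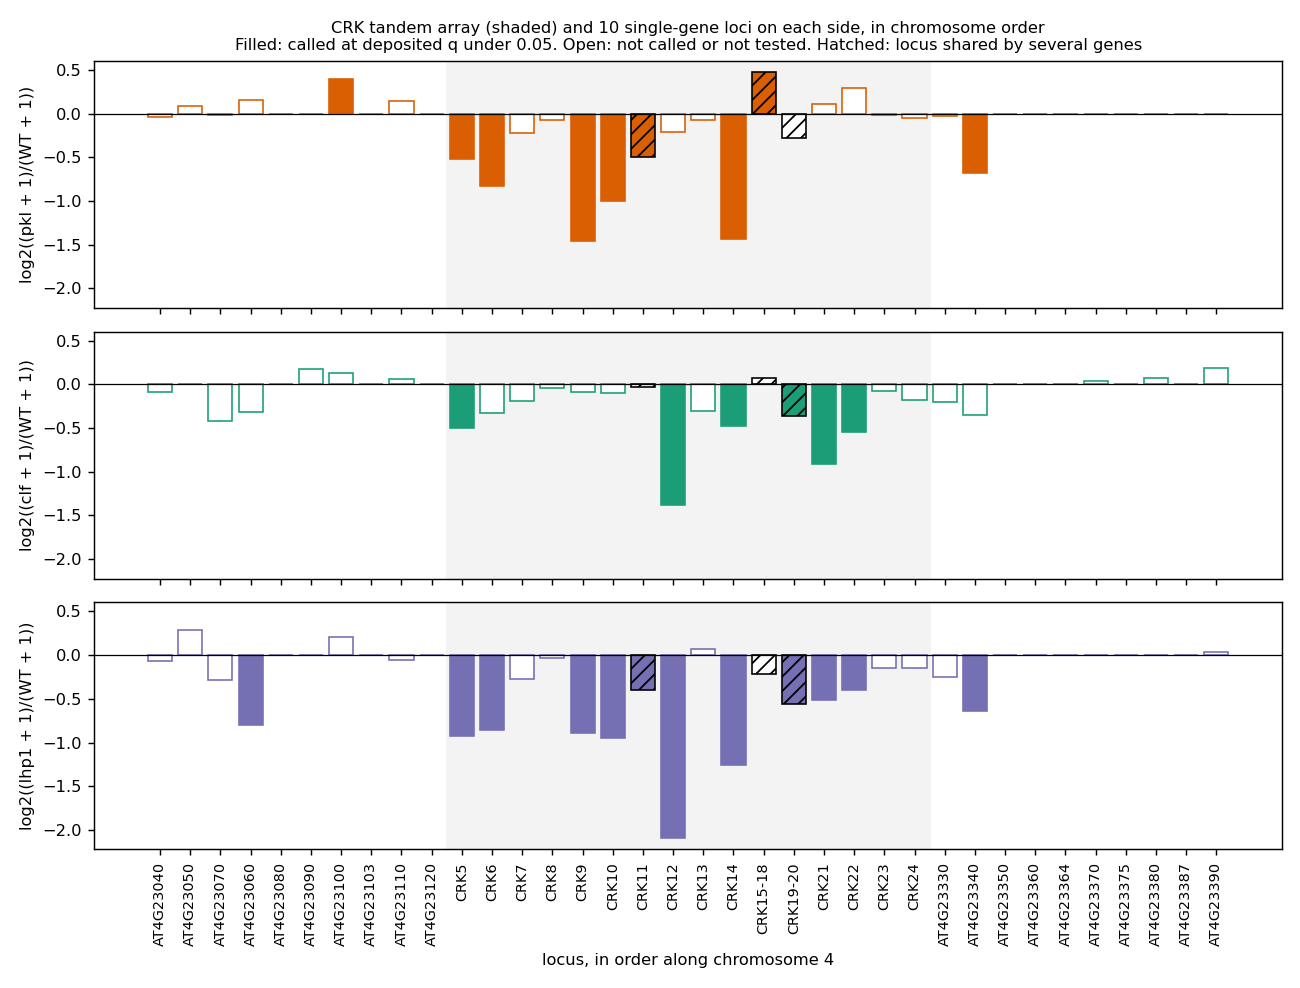
Log2((mutant FPKM + 1)/(WT FPKM + 1)) for each locus of the CRK array (shaded) and 10 single-gene loci on each side, in chromosome order, for pkl, clf and lhp1 from top to bottom. Filled bars were called at a deposited q under 0.05, open bars were not called or not tested, and hatched bars are loci shared by several genes. The deepest bar is that of CRK12 in lhp1 at -2.09, and the CRK15 to CRK18 locus is the array's 1 filled bar above 0.

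CRK4, CRK5, CRK14 and CRK41 fell in all 3 mutants. CRK4, whose overexpression is known to enhance defence responses and cell death, stood at 1.82 FPKM in pkl, 2.46 in clf and 2.04 in lhp1, against 7.38 in WT (log2 fold changes -1.57, -1.28 and -1.46, each with q of the authors' deposited table = 0.000661). These are 0.247, 0.333 and 0.277 of the WT level. It lies at 16863111 to 16866158 on chromosome 3, away from the array. By share of the shorter coding sequence its nearest members were CRK19 (77.8%), CRK20 (77.5%) and CRK23 (76.8%), all of the array. Over aligned bases CRK20 (79.8%) stood above CRK19 (78.6%).

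CRK14 (12153942 to 12157091) fell most in pkl, with 0.617 FPKM in pkl, 2.16 in clf and 0.836 in lhp1, against 3.39 in WT. CRK5 (12117541 to 12120134), at the array's first position and linked to defence and leaf senescence, stood at 2.55 FPKM in pkl, 2.61 in clf and 1.68 in lhp1, against 4.09 in WT. CRK41 (418201 to 421924) had its lowest value in lhp1, with 3.52 FPKM in pkl, 3.79 in clf and 0.946 in lhp1, against 6.22 in WT. The q of these 3 genes in the authors' deposited table lay between 0.000661 and 0.0152 in the 3 mutants. CRK14 and CRK41 thus differ in which mutant was lowest, though no mutant was tested against another.

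CRK6, CRK9, CRK10 and CRK36 fell in pkl and lhp1 and were not called in clf. CRK10 (12138137 to 12140921) stood at 14.3 FPKM in pkl, 27.6 in clf and 14.8 in lhp1, against 29.6 in WT (q of the authors' deposited table = 0.000661 in pkl and lhp1, and 0.701 in clf). CRK9, a single-exon gene also named EP1, which lacks the kinase domain and whose RefSeq note describes induction by salicylic acid, stood at 14.0 FPKM in pkl, 37.9 in clf and 21.4 in lhp1, against 40.5 in WT. It lies next to CRK10, at 12135093 to 12136157, on the same strand, and both were close to WT in clf, with log2 fold changes of -0.09 and -0.10.

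CRK6, which with CRK7 protects against oxidative stress in the apoplast, stood at 0.181 FPKM in pkl, 0.669 in clf and 0.155 in lhp1, against 1.09 in WT. CRK36, a kinase that interacts with the receptor-like cytoplasmic kinase BIK1, stood at 0.556 FPKM in pkl, 1.29 in clf and 0.700 in lhp1, against 1.88 in WT. In clf both were lower in value but missed the threshold, with q of the authors' deposited table = 0.109 for CRK6 and 0.145 for CRK36. CRK7, next to CRK6, was at 0.361 FPKM in pkl, 0.388 in clf and 0.306 in lhp1, against 0.583 in WT, and was called in none of the 3 tables (q of the authors' deposited table from 0.159 to 0.391).

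CRK12, CRK21 and CRK22, all in the array, fell in clf and lhp1 and were not called in pkl. CRK12 (12145149 to 12148004) had the largest fall of any member, with 4.01 FPKM in pkl, 1.21 in clf and 0.354 in lhp1, against 4.78 in WT. That is 0.254 of the WT level in clf and 0.0740 in lhp1 (q of the authors' deposited table = 0.000661 in both), while pkl kept 0.838 of it (q = 0.385). CRK21 stood at 10.9 FPKM in pkl, 4.85 in clf and 6.72 in lhp1, against 9.98 in WT. CRK22 stood at 19.0 FPKM in pkl, 10.2 in clf and 11.4 in lhp1, against 15.3 in WT. For both genes the pkl value was above WT and the clf value was the lowest of the 4 genotypes.

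All 8 genes called lower in both pkl and lhp1 (CRK4, CRK5, CRK6, CRK9, CRK10, CRK14, CRK36 and CRK41) had at least 1 W-box core, and 0 of the 3 called lower in clf and lhp1 alone (CRK12, CRK21 and CRK22) had one. CRK2, called lower in pkl alone, had none, and 1 of the 2 genes called lower in lhp1 alone had one, which makes 9 of the 14 genes called lower in any mutant (64.3%), against 73.2% of the whole family. Both genes called higher, CRK25 and CRK30, had a core, though the CRK25 window holds an exon of AT4G05210. A core was also in 2 of the 4 tested and not called and in 8 of the 10 too low to be tested. Members in shared loci are left out of these groups. In the CRK19 and CRK20 locus, called lower in clf and lhp1 and not in pkl, CRK20 had 2 cores and CRK19 had 0. CRK11, whose shared locus was called lower in pkl and lhp1, had 6. The groups were formed from the calls and looked at afterwards, so these counts are a description and were not tested.

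**Figure D3:**
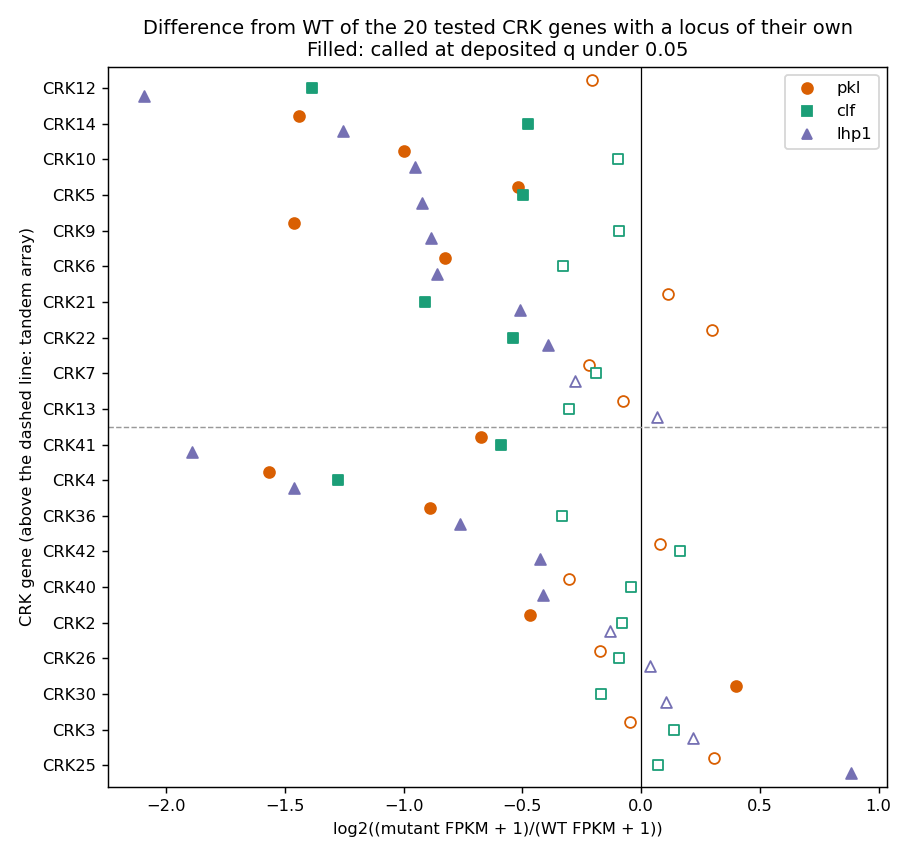
Log2((mutant FPKM + 1)/(WT FPKM + 1)) of the 20 tested CRK genes with a locus of their own, array genes above the dashed line, with circles for pkl, squares for clf and triangles for lhp1. Filled points were called at a deposited q under 0.05. CRK9 and CRK10 have pkl and lhp1 points well left of 0 and clf points near it, while CRK21 and CRK22 have clf and lhp1 points left of 0 and pkl points to the right.

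Some CRK genes were called in a single mutant. CRK2, known to phosphorylate the NADPH oxidase RBOHD, fell in pkl alone, with 18.7 FPKM in pkl, 24.7 in clf and 23.9 in lhp1, against 26.2 in WT. Its neighbour CRK3 stood at 27.3 FPKM in pkl, 31.1 in clf and 32.99 in lhp1, against 28.2 in WT, and was not called. CRK40 fell in lhp1, with 22.0 FPKM in pkl, 26.5 in clf and 20.3 in lhp1, against 27.4 in WT. CRK42 fell in lhp1 as well, to 2.63 FPKM, against 3.87 in WT, with 4.14 in pkl and 4.45 in clf.

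The 2 rises among genes with a locus of their own were those of CRK30 in pkl and CRK25 in lhp1. CRK30 stood at 13.5 FPKM in pkl, 8.75 in clf and 10.8 in lhp1, against 9.96 in WT (q of the authors' deposited table = 0.0138 in pkl). CRK25 stood at 6.16 FPKM in pkl, 5.09 in clf and 9.70 in lhp1, against 4.79 in WT (q of the authors' deposited table = 0.00177 in lhp1). The authors' CRK25 locus runs from 2675101 to 2682383 and holds 4622 bases outside the RefSeq gene, and that of CRK30 holds 680, so part of these values may come from outside the genes. The CRK2 locus likewise holds 1486 bases outside its gene. Among other called genes the loci of CRK42, CRK14, CRK41 and CRK36 hold 468, 359, 165 and 70 such bases.

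CRK13 and CRK26 were tested and not called in any mutant. CRK13, whose overexpression raises salicylic acid-dependent resistance, stood at 0.925 FPKM in pkl, 0.646 in clf and 1.13 in lhp1, against 1.03 in WT. CRK26 stood at 0.736 FPKM in pkl, 0.834 in clf and 1.01 in lhp1, against 0.957 in WT; a second locus of the same span held at most 0.247 FPKM and was left out. The remaining 10 genes were too low for the authors' test in every table. CRK1, also named RKF2, and CRK33 were listed at 0 in all 4 genotypes. CRK8, CRK23, CRK24, CRK31, CRK32, CRK37, CRK38 and CRK39 stood between 0.00583 and 0.403 FPKM.

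The 6 shared loci hold the other 11 members. The locus of CRK15, CRK16, CRK17 and CRK18 (12157568 to 12170230) rose in pkl, with 36.5 FPKM in pkl, 27.2 in clf and 22.2 in lhp1, against 26.0 in WT (q of the authors' deposited table = 0.00413 in pkl). The locus of CRK19 and CRK20, a pair known to trigger cell death when overexpressed, fell in clf and lhp1, with 23.2 FPKM in pkl, 21.7 in clf and 18.9 in lhp1, against 28.3 in WT. The locus of CRK11 and the noncoding gene AT4G23205 fell in pkl and lhp1, with 11.2 FPKM in pkl, 15.8 in clf and 12.1 in lhp1, against 16.2 in WT. CRK34, in a locus shared with AT4G11521, fell to 5.38 FPKM in lhp1, against 9.88 in WT. The locus of CRK28 and CRK29 with AT4G21420 lay between 33.3 and 36.5 FPKM in the 4 genotypes, and that of CRK27 with LpxD2 between 3.87 and 5.89, with no call in either. Which gene of a shared locus moved cannot be told apart.

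Smaller clusters on chromosome 4 were mixed. In the cluster AT4G04490 to AT4G04570, CRK36 and CRK40 were the 2 of 5 genes tested and both fell in lhp1, while CRK37, CRK38 and CRK39 were too low. CRK39 and CRK40 shared 86.7% of coding bases, yet stood at 0.163 and 27.4 FPKM in WT. In the cluster AT4G11460 to AT4G11530, CRK30 was the 1 member of 4 with their own locus that was tested. AT4G11500, which lies in this stretch, was not counted as a member and is listed with the DUF26 genes below.

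Other genes, listed beforehand as DUF26 genes without a check of their domains here, were counted next. They are not a contrast group to the CRK family. AT4G11890 is also named CRK45, and AT4G11500 lies between CRK33 and CRK34 on chromosome 4. Whether further genes of this list are CRKs was not checked. With a locus of their own 11 were tested. In pkl 4 fell and 2 rose, in clf 1 fell and 1 rose, and in lhp1 2 fell and 3 rose. The genes that fell in pkl were AT1G70740, AT4G11500, AT4G11890 and AT3G22060, and those that rose were AT1G04520 and PDLP6. Left out of these counts is the shared locus that holds AT4G00960, which was called lower in pkl. Of all tested loci 6.75% were lower and 6.71% higher in pkl, 5.28% and 7.15% in clf, and 10.6% and 11.1% in lhp1. ARCK1 (AT4G11890, also named CRK45), a kinase that acts with CRK36 in abscisic acid and osmotic stress responses, fell to 1.16 FPKM in pkl, with 6.23 in clf and 5.64 in lhp1, against 8.13 in WT. AT3G22060, a DUF26 gene without a kinase domain per its RefSeq note, fell in all 3, with 28.9 FPKM in pkl, 27.2 in clf and 15.3 in lhp1, against 56.1 in WT. Among genes for plasmodesmata-located proteins, PDLP6 rose in all 3, with 19.0 FPKM in pkl, 17.8 in clf and 22.6 in lhp1, against 11.05 in WT. PDLP8 (AT3G60720) rose in lhp1, with 5.02 FPKM in pkl, 5.92 in clf and 8.66 in lhp1, against 4.32 in WT.

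Genes of immune receptors, of the oxidative burst and of kinases that act with them were counted too. With a locus of their own 13 were tested. In pkl 5 fell and 0 rose, in clf 1 fell and 0 rose, and in lhp1 3 fell and 2 rose. The share of all tested loci was 6.75% lower and 6.71% higher in pkl, 5.28% and 7.15% in clf, and 10.6% and 11.1% in lhp1. Left out of these counts is the shared locus that holds MPK3, which was called lower in pkl and lhp1. FRK1, a receptor-like kinase gene induced by flagellin, fell in all 3, with 0.663 FPKM in pkl, 2.41 in clf and 1.94 in lhp1, against 7.31 in WT. The flagellin receptor gene FLS2 fell in pkl and lhp1, with 13.2 FPKM in pkl, 19.8 in clf and 15.2 in lhp1, against 20.8 in WT. SOBIR1, for a co-receptor of receptor-like proteins, fell to 30.6 FPKM in pkl and 46.1 in lhp1, with 71.7 in clf, against 64.0 in WT. The oxidase gene RBOHD, a target of CRK2, rose in lhp1 to 86.9 FPKM, with 48.4 in pkl and 69.2 in clf, against 55.4 in WT.

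Of 15 tested salicylic acid and WRKY genes, 8 fell and 0 rose in pkl, 2 fell and 5 rose in clf, and 7 fell and 2 rose in lhp1. Over all tested loci the shares were 6.75% lower and 6.71% higher in pkl, 5.28% and 7.15% in clf, and 10.6% and 11.1% in lhp1. PR1, a pathogenesis-related gene induced by salicylic acid, fell in pkl and lhp1, with 3.50 FPKM in pkl, 39.8 in clf and 24.6 in lhp1, against 47.5 in WT. WRKY70, for a transcription factor of the salicylic acid response, fell in pkl and lhp1 as well, with 10.2 FPKM in pkl, 52.7 in clf and 23.0 in lhp1, against 66.8 in WT. SARD1, for an activator of salicylic acid synthesis, stood at 2.17 FPKM in pkl, 7.16 in clf and 2.30 in lhp1, against 7.79 in WT, and fell in pkl and lhp1. PR5, another pathogenesis-related gene, fell in lhp1 alone, with 31.7 FPKM in pkl, 46.4 in clf and 14.3 in lhp1, against 38.4 in WT. These 4 genes, named for their size of change, were not called in clf (q of the authors' deposited table from 0.0596 to 0.795). Other genes of the list rose, and 2 are named here after their values were seen. WRKY33 rose in clf and lhp1, with 22.6 FPKM in pkl, 72.7 in clf and 48.2 in lhp1, against 28.0 in WT. WRKY40 rose in the same mutants, with 7.45 FPKM in pkl, 27.3 in clf and 24.6 in lhp1, against 10.1 in WT. WRKY53, PR2 and CBP60g were also called higher in clf, and CBP60g was called lower in pkl. The 2 genes called lower in clf, likewise named after their values were seen, were ICS1 and PAD4. ICS1 fell in all 3, with 6.05 FPKM in pkl, 4.28 in clf and 4.38 in lhp1, against 8.47 in WT. PAD4 fell in pkl and clf, with 10.4 FPKM in each and 12.1 in lhp1, against 15.0 in WT. The median log2 fold change of the tested genes of this list was -0.48 in pkl, -0.06 in clf and -0.31 in lhp1, beside the all-loci medians above.

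**Figure D4:**
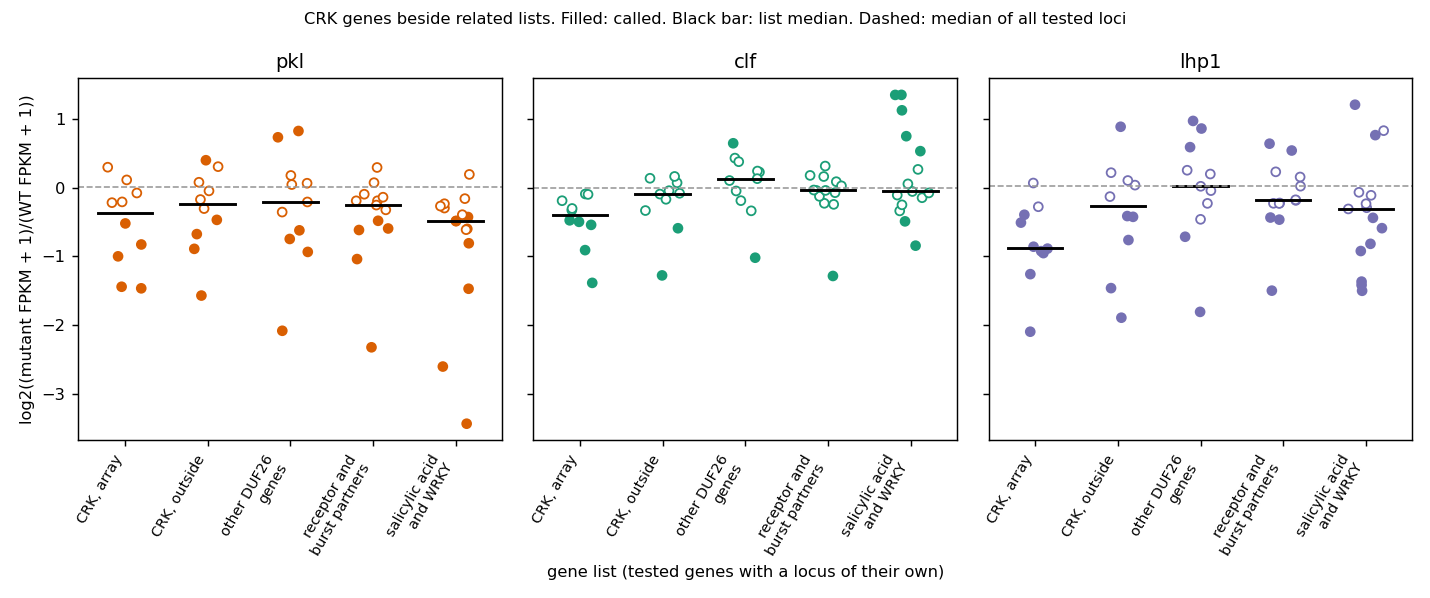
Log2((mutant FPKM + 1)/(WT FPKM + 1)) of tested genes with a locus of their own in 5 lists, for pkl, clf and lhp1. Filled points were called, black bars are list medians and the dashed line is the median of all tested loci. The salicylic acid and WRKY genes have 8 filled points below 0 and 0 above in pkl, while clf has 5 filled points above 0.

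Organ and senescence markers also moved between genotypes, and their part in the CRK values was not tested. The 4 floral marker genes (AG, AP1, AP3 and SEP3) all rose in clf and lhp1, with summed levels of 6.32 FPKM in pkl, 208 in clf and 299 in lhp1, against 10.9 in WT; in pkl 1 of the 3 tested fell. Of 4 root markers (CASP1, EXPA7, PYK10 and PLT2) 1 rose and 0 fell in pkl, 0 rose and 2 fell in clf, and 1 rose and 0 fell in lhp1. Their summed level, mostly PYK10, was 1995 FPKM in pkl, 2108 in clf and 3543 in lhp1, against 1987 in WT. The 2 leaf markers (RBCS1A and LHCB1.3) were not called by Cuffdiff in any mutant (at an unadjusted p under 0.05, 0 in pkl, 0 in clf and 1 lower in lhp1), with summed levels of 19030.1 FPKM in pkl, 14268 in clf and 12847 in lhp1, against 17604 in WT. The senescence gene SAG12 was listed at 0 in pkl and in WT and stood at 8.77 FPKM in clf and 4.51 in lhp1, where it was called higher, and SAG13 fell to 2.39 FPKM in pkl, against 6.18 in WT.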

How the data were processed

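RNA-seq of whole seedlings was deposited as 3 tables, 1 per mutant against WT, over 31788 loci. Per the file headers these are gene-level Cuffdiff results with 1 FPKM value per genotype, and alignment with TopHat, then Cufflinks 2.1.1 and Cuffdiff 2.1.1, on TAIR10 are tools and a build listed by the submitters' processing notes. No label states a strand setting or a handling of reads shared between copies. The deposited p-value and q-value are the authors' own; their deposited fold change and statistic columns were not used. Samples were grouped by title. No single-library values entered, so the spread behind the deposited p-values, which may be technical, could not be examined. Depth is unknown.

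Loci were matched to the 41 identifiers; where a gene had several loci, that with the highest mean FPKM was taken. A call needs test status OK and deposited q under 0.05. Log2((mutant FPKM + 1)/(WT FPKM + 1)) was computed with a pseudocount of 1 FPKM. Background counts cover the 19365, 19370 and 19509 tested loci with a gene name in pkl, clf and lhp1. Members, lists and tests were chosen with earlier results of these data known; named genes are the members, from each list up to 4 called genes with a locus of their own and the largest absolute log2 fold change, and called flanking genes. Further genes of the salicylic acid and WRKY list were named after their values were seen. The 234 loci without a gene name were left out of the background.

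Sequences, gene models and symbols come from RefSeq TAIR10.1. Of 28809 single-gene loci matched by identifier, 28808 overlapped that gene in it, and locus ends stayed within its chromosomes, so coordinates were used together. Upstream windows end before the outer of the RefSeq start and the start of the gene's own locus. Coding sequences were aligned globally with free end gaps in Biopython 1.88. Protein sequences were not used here. Calculations used Python 3.11.15, NumPy 2.4.6 and pandas 2.3.3, and the fold change and adjustment steps were tested on simulated data. Alternatives were a q threshold of 0.01, adjustment within each table, a minimum of 1 FPKM, shared loci counted, a pseudocount of 0.1 FPKM and scaling by the median ratio to WT.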

Additional observations from a re-analysis of the deposited data

How the results depend on the processing

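No paired analysis was possible because the tables hold 1 value per genotype, which also leaves no replicate to omit; both alternatives were not run. The numbers of lower calls stayed within 1.5 times of those reported under the alternatives tried. The 1 rise in pkl became 0 at a deposited q under 0.01 and 2 with shared loci counted. The medians of log2 fold changes kept their sign in pkl, clf and lhp1 under the alternatives tried, but their size moved with the treatment of weakly expressed genes. With a pseudocount of 0.1 FPKM they were -0.28, -0.42 and -0.54 over all CRK genes in pkl, clf and lhp1, -0.47, -0.60 and -0.91 in the array, and -0.18, -0.18 and -0.28 outside it. Over loci of at least 1 FPKM in the mutant or WT they were -0.39, -0.32 and -0.51 over all CRK genes in the same order, -0.52, -0.48 and -0.89 in the array, and -0.30, -0.08 and -0.27 outside it. The cause was built into both alternatives, since a smaller pseudocount and a floor give weak genes more or no weight. No called single gene changed direction. Small changes of genes under 1 FPKM are beyond what these tables can show.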
